A study of Gallus gallus with 4 samples.

Results

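The response of Müller glia (MG) to NMDA was described in chick retinas from which microglia had been ablated, by setting the MG of a clodronate+NMDA library against the MG of a clodronate+saline library. Barcodes with at least 200 genes and at most 5% of UMIs in mitochondrially encoded protein genes were kept. MG of the clodronate+saline library were then the barcodes with at least 10 UMIs of *GLUL* and at least 2 of *RLBP1*, genes of resting MG. MG of the clodronate+NMDA library were those with at least 4 UMIs of *FABP9* and at least 1 of *TGFB2*, genes of activated MG. The members were thus chosen by the UMI counts of these 4 genes. The gates took 454 and 344 barcodes, 798 of the 41286 barcodes of the series. *GLUL* had a median of 49 UMIs in the clodronate+saline MG and *FABP9* a median of 23 in the clodronate+NMDA MG, and neither these genes nor *RLBP1* and *TGFB2* are results. Few barcodes lay at the limits on *GLUL* and *FABP9*, with 4 MG at exactly 10 UMIs of *GLUL* against 3 barcodes left out at 9, and 14 MG at exactly 4 UMIs of *FABP9* against 16 left out at 3. More lay at the other limits, with 82 MG at 2 UMIs of *RLBP1* against 95 barcodes left out at 1, and 87 MG at 1 UMI of *TGFB2* against 135 left out at 0.

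The series held 4 droplet libraries (10x Genomics) of dissociated retinas of wild-type posthatch chicks, 1 library each for saline, NMDA, clodronate+saline and clodronate+NMDA. Clodronate liposomes or saline went into the eye first and NMDA or saline some days later, and the retinas were taken the day after that. All chicks of the pair described here had clodronate, which in liposomes kills the phagocytes that take it up, so neither library shows MG with microglia present. How many retinas a library holds is not given in the sources used here. With 1 library for each condition no difference has a replicate check, no test was made, and the 95% intervals given below cover counting error only.

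MG are the radial glia that span the retina. They clear glutamate, buffer potassium and water and supply neurons with fuel. NMDA overstimulates glutamate receptors and kills inner retinal neurons, above all amacrine and ganglion cells. In chicks the MG then leave their resting state, become reactive, and some re-enter the cell cycle as Müller glia-derived progenitor cells (MGPCs).

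The library labels were checked first. Barcodes with UMIs of at least 2 of the complement genes *C1QA*, *C1QB* and *C1QC*, which mark microglia in the retina, numbered 0 of 11434 in clodronate+saline and 0 of 8050 in clodronate+NMDA, which allows shares of up to 0.0262% and 0.0373%. There were 23 of 10905 such barcodes in saline and 28 of 10897 in NMDA. The MG held 1910450 UMIs in clodronate+saline and 2226758 in clodronate+NMDA, with medians of 4190.5 and 5856.5 UMIs per cell. The clodronate libraries shared 101 barcode sequences, of which 0 were MG in both, and other pairs of libraries shared 113 to 214, of which at most 3 were.

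Of 5 markers of MG outside the gates 4 were short of 2-fold apart and 1 was lower (20%). Most genes were short of 2-fold as well. Of all genes compared 9.10% were at least 2-fold higher and 10.6% lower in clodronate+NMDA MG. The count therefore does not set these markers apart from other genes. *SLC1A3*, the glial glutamate transporter, was at 4367 CPM (UMIs per 1000000 UMIs of all genes, summed over the MG of a library) in clodronate+saline. In clodronate+NMDA it was at 4376 CPM, which makes the log2 ratio of the latter over the former 0.00 (95% interval -0.04 to 0.05). The filament gene *VIM* had a log2 ratio of 0.20 (0.18 to 0.23) and the transcription factor genes *SOX2* and *SOX9* of 0.28 (0.11 to 0.45) and -0.63 (-0.72 to -0.53). The other marker, the receptor gene *GPR37L1*, was lower in clodronate+NMDA, at 121 CPM after 628 CPM. The gates were nearly exclusive. Of the clodronate+saline barcodes 9 passed the gate for activated MG, and these held 211 UMIs of *MBP* and 93 of *OLIG2*, genes of the oligodendrocyte lineage. Of the clodronate+NMDA barcodes 18 passed the gate for resting MG, and 14 of them were among the 344. Since the gates take different states in the libraries, each count was also taken with a single gate on *SOX9*, *SLC1A3* and *VIM*, which admitted 579 and 427 barcodes and held 417 and 288 of the gated MG.

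RNA of other cell types was present in the gated MG and moved between the libraries. Of 6 rod markers 5 were at least 2-fold lower in clodronate+NMDA MG, and their sum went from 787 to 212 CPM. It also went from 406 to 157 CPM in barcodes with bipolar cell genes of the same libraries. These barcodes, 3249 and 2164 that had UMIs of at least 2 of 4 bipolar cell genes and failed both gates, serve below as the background for MG genes. The sum of 6 amacrine markers was 365 and 182 CPM, that of 5 bipolar markers 516 and 273 CPM. Of 5 markers of oligodendrocytes and of NIRG cells, another glial type of the inner chick retina, the 3 with enough UMIs were at least 2-fold higher in clodronate+NMDA, and the sum went from 31.9 to 195 CPM. The median log2 ratio of these markers turned negative with either gate admitted in both libraries. It did so as well without cells with *OLIG2* or *SOX10*. Both genes are among these markers, so leaving out their cells set them to 0 and changed the genes behind the median. *OLIG2* was in 18 of the 344 cells. The 5 ganglion cell markers summed to 81.1 and 268 CPM, and 85.2% of the 352 UMIs of *THY1* in clodronate+NMDA were in 5 cells. With the single gate on *SOX9*, *SLC1A3* and *VIM* the median log2 ratio of the ganglion cell markers turned negative. Of the microglial markers *C1QA*, *C1QB*, *C1QC* and *CSF1R* were at 0 in both, while *CCL4* had 2 and 27 UMIs. The part of these cells in the results below was examined only by leaving out MG. Leaving out the MG richest in UMIs of other cell types kept 341 and 258 MG. Of 9485 genes 886 were then at least 2-fold higher in clodronate+NMDA MG and 1115 at least 2-fold lower. Of 104 genes named by rank and past 2-fold that could be compared, 103 kept their call. The other choice, leaving out cells with *OLIG2* or *SOX10*, was made after the data were seen. RNA of other cell types in the MG that were kept was not tested.

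**Figure D1:**
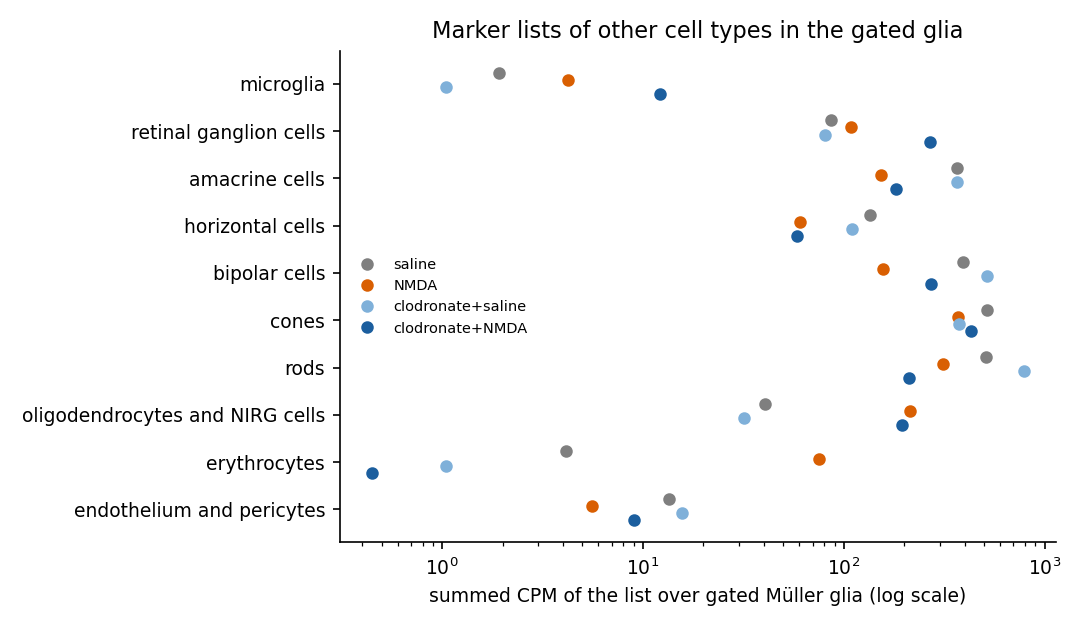
Summed CPM of marker lists of other cell types in the gated MG, on a log scale, with 1 point for each of the 4 libraries. Rod markers were lower in clodronate+NMDA (212 CPM) than in clodronate+saline (787 CPM), and oligodendrocyte and NIRG cell markers higher (195 and 31.9 CPM).

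Over all genes, 10353 had at least 20 UMIs in both libraries together. Of these 942 were at least 2-fold higher in clodronate+NMDA MG than in clodronate+saline MG (9.10%) and 1102 at least 2-fold lower (10.6%). Below, rose and fell mean past this size, and the counts of each gene list are to be read against these shares. The median log2 ratio over all genes was -0.00. With the single gate on *SOX9*, *SLC1A3* and *VIM* 802 genes were higher and 1332 lower of 10653.

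The gene that rose most was *ANXA1*, annexin A1, a phospholipid-binding protein known from the resolution of inflammation. It had 0 UMIs in clodronate+saline MG and 691 in clodronate+NMDA MG, or 310.3 CPM, and was thus at least 198-fold higher when 0 is read as 3 UMIs. Of the clodronate+NMDA MG 64.8% had a UMI of *ANXA1*, and of the bipolar-gene barcodes of that library 2.13%, at median depths of 5856.5 and 1480.5 UMIs. With cells thinned to 2000 UMIs the share was 38.7%, and 3.11% in the NMDA library with microglia. The zinc finger factor gene *KLF2* went from 0 to 330 UMIs, at least 94.4-fold higher, and was found in 35.8% of clodronate+NMDA MG against 0.69% of bipolar-gene barcodes. *S100A4* went from 0 to 264 UMIs and *S100A6* from 199 to 4675. Both encode small calcium-binding proteins. *S100A6* was in 77.0% of clodronate+NMDA MG, at 2099 CPM after 104 CPM, a log2 ratio of 4.33 (4.13 to 4.55).

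*BMP4*, a bone morphogenetic protein, was at 0.52 CPM from 1 UMI and at 93.9 CPM from 209 UMIs, a log2 ratio of 6.90 (4.99 to 12.80). A UMI of *BMP4* was in 17.2% of clodronate+NMDA MG, and 40.2% of the 209 UMIs were in 5 cells. *LRRC15*, a leucine-rich repeat membrane protein, went from 17.8 to 445 CPM and was in 78.8% of the cells. *EDA2R*, a receptor of the TNF receptor family, went from 2 to 232 UMIs. The galectin gene *LGALS1A* went from 8 to 332 UMIs, *TMEM158* from 4 to 332, *C6orf58* from 3 to 401, and *ARPC1B*, a subunit of the complex that nucleates branched actin, from 1 to 134. *SST1* had 0 and 256 UMIs, but those 256 came from 7.85% of the cells. All 12 of these genes were also higher in NMDA MG than in saline MG, with log2 ratios between 4.08 (*S100A4*) and 9.56 (*KLF2*).

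By the upper bound of its interval the gene that fell most was *EXFABP*, an avian lipocalin that binds fatty acids and bacterial siderophores, from 560.6 to 7.19 CPM, a log2 ratio of -6.24 (-7.10 to -5.58). It was in 47.6% of clodronate+saline MG and 4.07% of clodronate+NMDA MG, and in 4.92% and 0.74% of bipolar-gene barcodes. *FN1*, fibronectin, fell from 599.9 to 28.7 CPM (-4.37, -4.77 to -4.02) and *LOX*, the collagen cross-linking enzyme, from 52 to 0 UMIs, at least 20.2-fold lower. These 3 genes were high in clodronate+saline and not in saline, where they were at 53.5, 122 and 6.59 CPM. *GFAP*, the glial filament gene, was at 355 CPM in clodronate+saline and 19.3 CPM in clodronate+NMDA (-4.18, -4.68 to -3.75), and fell in the bipolar-gene barcodes as well, by 3.35 on the log2 scale.

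The next genes that fell were not 2-fold higher in clodronate+saline than in saline. *CRABP1*, which binds retinoic acid in the cytoplasm, was at 811 CPM in saline, 545 CPM in clodronate+saline, 13.8 CPM in NMDA and 27.8 CPM in clodronate+NMDA. *AQP9*, a channel for water and glycerol, went from 120 UMIs to 1 and *C1QTNF12* from 130 to 2. In saline and clodronate+saline these were at 53.0 and 62.8 CPM and at 64.5 and 68.0 CPM. *MLPH*, an organelle transport adaptor, went from 333 to 13 UMIs and *YJEFN3* from 159 to 6. *PRSS56*, a secreted protease of MG, went from 39 UMIs to 0 and *CFD*, complement factor D, from 38 to 0. That is at least 15.2-fold and 14.8-fold lower. The UMIs of *CFD* came from 1.76% of the clodronate+saline MG, with 92.1% of the 38 in 5 cells. *PRSS56* was already lower in clodronate+saline, at 20.4 CPM, than in saline, at 146 CPM.

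**Figure D2:**
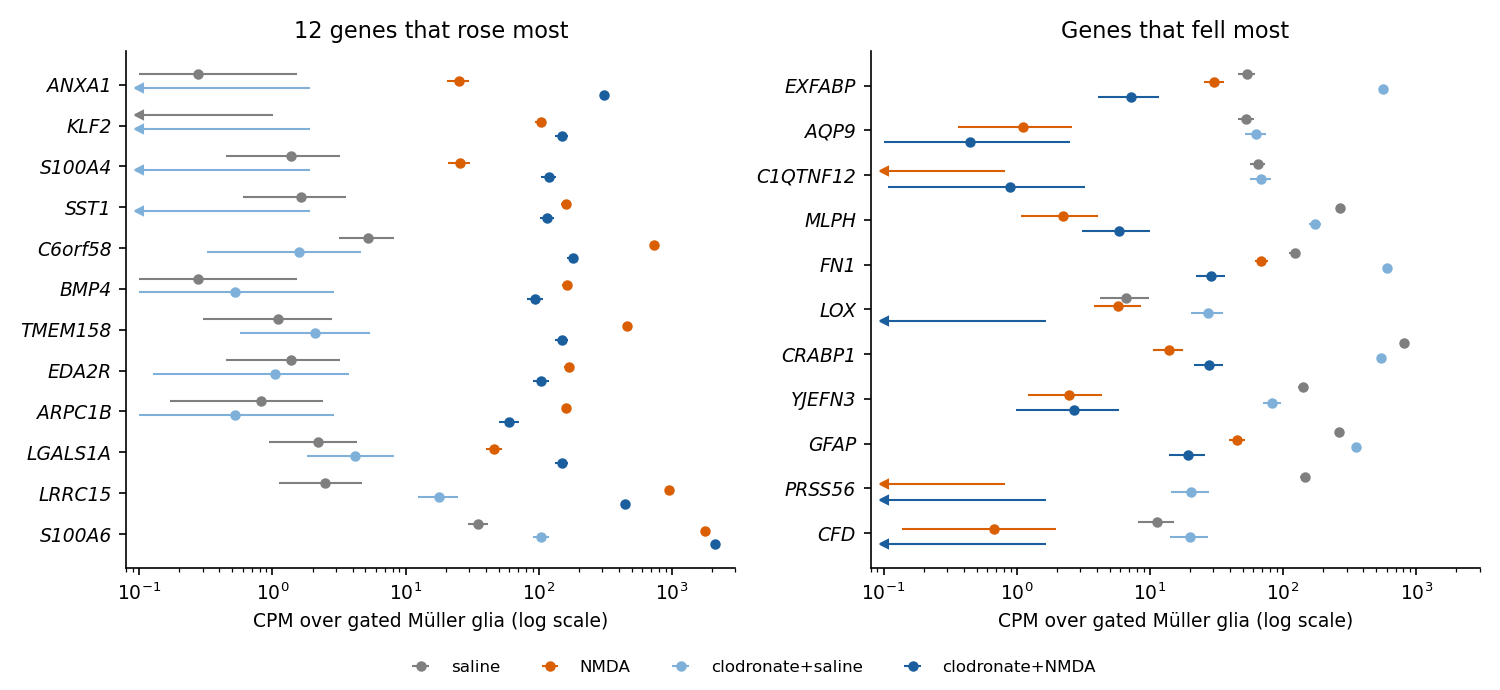
CPM over the gated MG of each of the 4 libraries, on a log scale, for the 12 genes that rose most and for genes that fell most between clodronate+saline and clodronate+NMDA, with bars for the 95% counting interval and left-pointing triangles for 0 UMIs. *EXFABP*, *FN1* and *LOX* stand higher in clodronate+saline than in the other 3 libraries, whereas *CRABP1* stands high in saline and clodronate+saline.

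Genes of the resting state of MG fell in part. Of 15 genes of glial homeostasis 0 rose and 6 fell (40%, against 10.6% of all genes), with a median log2 ratio of -0.60. The clodronate+saline MG were chosen by genes of resting MG and the clodronate+NMDA MG by genes of activated MG. Such gates favour a fall of resting genes and a rise of reactive ones. The calls of *GPR37L1*, *AQP4* and *CA2* were kept in all 14 alternatives, the single gate among them. *GPR37L1*, a glial orphan receptor, went from 628 to 121 CPM (-2.37, -2.57 to -2.18), *AQP4*, the water channel of glial endfeet, from 709 to 155 CPM (-2.19, -2.37 to -2.02) and *CA2*, carbonic anhydrase, from 8961 to 2686 CPM (-1.74, -1.78 to -1.70). In NMDA MG the same genes were lower, at 42.9, 40.4 and 1330 CPM, after 765, 656 and 14916 CPM in saline. The taurine transporter gene *SLC6A6*, the glial adhesion gene *HEPACAM* and the sphingosine-1-phosphate receptor gene *S1PR1* were the other 3 that fell. *CLU*, clusterin, was at 4732 and 3119 CPM, short of 2-fold.

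Of 19 genes of reactive glia 13 rose (68.4%, against 9.10% of all genes), with a median of 1.90, and 2 fell (10.5%, near the 10.6% of all genes). *CD44*, the hyaluronan receptor, had 1 and 76 UMIs, a log2 ratio of 5.45 (3.51 to 11.35). *TNC*, tenascin C, went from 18.8 to 188 CPM, *TPM4*, a tropomyosin, from 8.38 to 72.3 CPM and *MDK*, the growth factor midkine, from 83.2 to 514 CPM. *NES*, nestin, was at 288 and 1084 CPM, and at 259 and 992 CPM in saline and NMDA. The annexin gene *ANXA2* was already at 209.9 CPM in clodronate+saline against 11.8 CPM in saline, and reached 477 CPM in clodronate+NMDA. The 2 that fell were *GFAP*, given above, and *PLAU*, the urokinase gene, from 20 to 9 UMIs. With the single gate 13 rose and 2 fell as well.

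Wnt ligands bind Frizzled receptors, and some but not all act through beta-catenin. Secreted inhibitors such as WIF1, SFRP and FRZB proteins hold them off their receptors. The 3 ligand genes with enough UMIs, of 14 found, all rose in clodronate+NMDA MG, with a median log2 ratio of 3.87, or 2.95 with *WNT6* at its bound. However, *WNT4* and *WNT6* passed the minimum of 20 UMIs only through their clodronate+NMDA counts, so the minimum favoured a rise. The count and the median are therefore no result about the ligands as a group. *WNT4* had 1 UMI in clodronate+saline and 25 in clodronate+NMDA, or 0.52 and 11.2 CPM, a log2 ratio of 3.87 (1.81 to 9.78). Of those 25 UMIs 76.0% were in 5 cells. With microglia it stood at 0.55 CPM in saline MG and 725.5 CPM in NMDA MG, for a log2 ratio of 10.05. *WNT6* had 0 and 27 UMIs, at least 7.72-fold higher, and reached 12.1 CPM, while it was at 0.27 CPM in saline and 476 CPM in NMDA. *WNT5A* went from 18.8 to 40.9 CPM, for a log2 ratio of 1.10 (0.55 to 1.72), against 2.09 with microglia. It was short of 2-fold without microglia in 2 of 14 alternatives, down to 0.90.

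Among the inhibitors *WIF1* took opposite courses. It was at 6.80 CPM in clodronate+saline MG and 87.6 CPM in clodronate+NMDA MG, a log2 ratio of 3.64 (2.88 to 4.62), and at 846 CPM in saline and 45.8 CPM in NMDA, a log2 ratio of -4.20. A UMI of *WIF1* was in 2.42% of clodronate+saline and 34.9% of clodronate+NMDA MG, and in 0.28% and 0.60% of bipolar-gene barcodes. *FRZB* rose in both pairs of libraries, from 3.66 to 40.4 CPM without and from 6.59 to 58.1 CPM with microglia. *SFRP1* was at 319 and 368 CPM without microglia, and at 777 and 233 CPM with them. Of 16 Wnt receptor and target genes 1 rose, *MYC*, from 15.7 to 53.4 CPM, and 5 fell (31.2%, against 10.6% of all genes). They were *LGR5* (509 to 118 CPM) and *LGR4* (172 to 70.5 CPM), receptors of R-spondins, *FZD5* (339.7 to 158 CPM), the co-receptor gene *LRP5* (62.3 to 31.0 CPM, just past the limit) and *AXIN2* (21 to 11 UMIs), a feedback inhibitor of the pathway.

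Growth factors of the FGF and EGF families act through MAPK. Of 22 FGF and MAPK genes 5 rose (22.7%, against 9.10% of all genes) and 3 fell (13.6%, near the 10.6% of all genes), with a median of 0.19. Those that rose were *DUSP5* (2.62 to 17.1 CPM), *ETV4* (12.6 to 48.1 CPM), *ETV1*, *SPRY1* and *MAPK4*, of which *DUSP5* and *SPRY1* encode feedback inhibitors of the pathway and *ETV4* and *ETV1* transcription factors downstream of it. The ligands *FGF9* (51.8 to 7.63 CPM) and *FGF1* (86.4 to 18.4 CPM) and the receptor *FGFR1* (211 to 86.2 CPM) fell. *FGFR1* was at 205 and 208 CPM in saline and NMDA. *HBEGF*, a ligand of the EGF receptor, rose from 13.1 to 129 CPM (3.28, 2.71 to 3.96). It was the 1 gene of its list of 12 that rose (8.33%, near the 9.10% of all genes). In NMDA MG it stood at 296 CPM after 8.79 CPM in saline. *BTC*, another ligand, had 19 and 3 UMIs and was the 1 that fell (8.33%, near the 10.6% of all genes). *EGFR* was at 22.5 and 13.9 CPM.

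Of 18 genes of TGF-beta and activin signaling 3 rose and 3 fell, 16.7% each against 9.10% and 10.6% of all genes, and the median was -0.13. *TGFB1* went from 5.23 to 134 CPM (4.61, 3.78 to 5.76) and was in 31.4% of clodronate+NMDA MG against 1.34% of bipolar-gene barcodes. *LTBP1*, which holds latent TGF-beta in the matrix, went from 2.62 to 22.9 CPM and *FST*, the activin antagonist follistatin, from 20.9 to 45.8 CPM. *INHBA*, the activin subunit, fell from 318 to 69.6 CPM (-2.19, -2.45 to -1.93), whereas it was at 177 CPM in saline and 520.1 CPM in NMDA. *TGFB3* and the co-receptor gene *TGFBR3* fell too, from 87.4 to 35.5 and from 29.8 to 10.8 CPM.

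Of 16 BMP genes 5 rose and 4 fell, 31.2% and 25%. Beside *BMP4*, *MSX1*, a homeobox target of BMP, went from 1 to 58 UMIs, *BMP2* from 2 to 31, *ID2* from 23 to 153 and *ID3* from 74 to 348. ID proteins block basic helix-loop-helix factors. *ID4* fell from 1569 to 445 CPM and the receptor gene *BMPR1B* from 52.3 to 1.80 CPM, with 100 and 4 UMIs. *SMAD1* and *SMAD6* were the others that fell.

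Retinoic acid is made by ALDH1A enzymes and broken down by CYP26 enzymes. Of its 12 genes 2 rose and 4 fell, 16.7% and 33.3%, with a median of -0.77. *ALDH1A3* went from 20 UMIs to 0, at least 7.77-fold lower, *RARB*, a retinoic acid receptor, from 341 to 130.2 CPM and the retinal reductase gene *DHRS3* from 212 to 97.0 CPM. *CRABP1* is given above. *CYP1B1*, which can oxidize retinol, rose from 166 to 551 CPM and was at 345 and 220.0 CPM in saline and NMDA. *ALDH1A1* had 4 and 21 UMIs.

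Of 17 Notch genes 3 rose and 6 fell, 17.6% and 35.3%, and effectors were among both. The ligand gene *DLL1* went from 31 UMIs to 0 (16.2 CPM, and at most 1.35 CPM where 0 is read as 3 UMIs), and the effectors *HES5* from 92 to 4, *HES4* from 133 to 18 and *HEYL* from 85 to 25. All 92 UMIs of *HES5* in clodronate+saline came from 5.51% of the cells. *LFNG*, which modifies Notch, and the effector *HEY2* fell as well. *MAML2*, a coactivator, went from 34.5 to 93.0 CPM, *HEY1* from 15.2 to 32.3 CPM and *RBPJ* from 9 to 26 UMIs. Among 21 genes of a mixed list of progenitor and glial regulators 1 rose, *HMGA1*, an architectural chromatin protein, from 41.9 to 229 CPM. *RAX*, *NFIX* and *NEUROG2* fell, by 1.09, 1.15 and 1.73 on the log2 scale. That makes 4.76% higher and 14.3% lower, near the 9.10% and 10.6% of all genes. *LIN28A*, *LIN28B*, *HMGA2* and *ATOH7* had too few UMIs to compare.

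**Figure D3:**
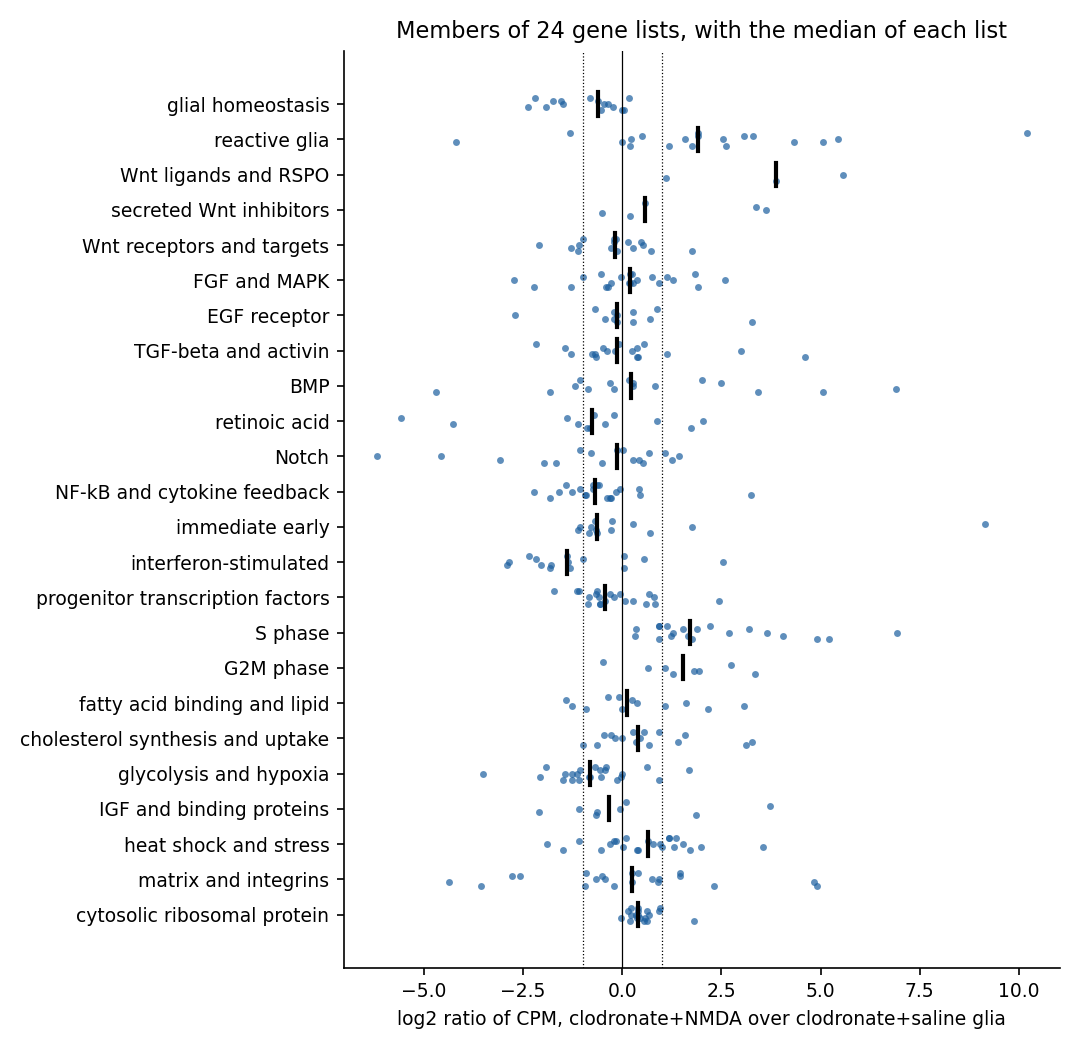
Log2 ratio of CPM, clodronate+NMDA over clodronate+saline MG, for each member with at least 20 UMIs of 24 gene lists, with a bar at the median of each list and dotted lines at 2-fold. S phase genes lie right of 0 with a median of 1.70, interferon-stimulated genes mostly left with a median of -1.39.

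Interferon-stimulated genes, which encode antiviral and antigen-presentation proteins, were lower in clodronate+NMDA MG. Of 15 genes 11 fell, against 10.6% of all genes, and 1 rose, with a median of -1.39 against -0.00 over all genes. *LY6E* went from 1135 to 151 CPM (-2.91, -3.08 to -2.74), *B2M*, the light chain of MHC class I, from 599.9 to 118 CPM (-2.34, -2.54 to -2.15) and *OASL* from 361 to 87.1 CPM (-2.05, -2.29 to -1.82). Levels with microglia differed from gene to gene. *LY6E* was at 909.9 and 101 CPM in saline and NMDA, near its values without microglia, whereas *IFI6* was at 0.55 and 5.14 CPM, and at 275 and 78.1 CPM in clodronate+saline and clodronate+NMDA. The list also had a negative median in bipolar-gene barcodes, at -1.01. With barcodes over 2500 genes left out 7 genes fell and 2 rose, with a median of -0.89.

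What remained of some of these transcripts in clodronate+NMDA sat in few cells. *IFI6* was in 115 of 454 clodronate+saline MG and in 6 of 344 clodronate+NMDA MG, and 5 of those 6 held 99.4% of its 174 UMIs. *OASL* was in 160 and 18 cells, and 5 cells held 78.4% of the UMIs in clodronate+NMDA against 18.7% in clodronate+saline. *IFIT5* was in 90 and 17 cells, with 379 UMIs in clodronate+NMDA of which 87.9% were in 5 cells. *RSAD2*, the 1 gene that rose, had 77 UMIs in 10 cells. *B2M* and *LY6E* were spread wider, over 149 and 154 of the 344 cells.

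Of 20 genes of NF-kB and cytokine feedback 1 rose and 6 fell (30%, against 10.6% of all genes), with a median of -0.69. *TNFRSF11B*, the decoy receptor osteoprotegerin, went from 135 to 28.7 CPM, *NFKBIZ*, an atypical inhibitor of NF-kB, from 66.0 to 18.4 CPM and *JAK2*, a kinase of cytokine receptors, from 148 to 54.8 CPM. *SOCS3*, *IRF1* and *REL* fell as well. The gene that rose was *CCL4*, whose 27 UMIs came from 4 cells. Immediate early genes did not move together. *KLF2* and *MYC* rose, *NR4A3* and *BTG2* fell by 1.06 and 1.12 on the log2 scale, each short of 2-fold in 2 of 14 alternatives, and *FOS* was at 1521 and 970.5 CPM and *JUN* at 628 and 365 CPM, both short of 2-fold.

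Genes of DNA replication were higher in clodronate+NMDA MG. Of 20 S phase genes 15 rose, against 9.10% of all genes, and 0 fell, with a median of 1.70, against -0.02 in bipolar-gene barcodes. The replicative helicase genes *MCM2* to *MCM6* rose together, *MCM2* from 4 to 156 UMIs (4.90, 3.68 to 6.96), *MCM3* from 4 to 86, *MCM4* from 8 to 123, *MCM5* from 13 to 144 and *MCM6* from 21 to 115. *PCNA*, the sliding clamp, went from 42.4 to 143 CPM, and *RRM2*, the ribonucleotide reductase subunit made in S phase, from 0 to 70 UMIs, or 31.4 CPM. *RRM2* and *MCM2* to *MCM5* passed the minimum of 20 UMIs only through their clodronate+NMDA counts. For such genes the minimum favoured a rise, which limits the count of 15. With microglia 8 of the 20 rose, with a median of 0.70, where 14.1% of all genes compared in that pair rose. *MCM4* was at 6.04 and 12.1 CPM in saline and NMDA, and at 4.19 and 55.2 CPM in clodronate+saline and clodronate+NMDA. Summed over the list, MG had 194 CPM in saline, 305 CPM in NMDA, 222 CPM in clodronate+saline and 779 CPM in clodronate+NMDA.

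These UMIs were spread over many cells. With each cell thinned to 2000 UMIs, at least 2 S phase UMIs were found in 113 of 331 clodronate+NMDA MG (34.1%, exact binomial 95% interval 29.0 to 39.5%), 73 of 579 NMDA MG (12.6%), 40 of 437 clodronate+saline MG (9.15%) and 53 of 845 saline MG (6.27%). The unthinned shares were 58.7%, 49.6%, 23.6% and 19.8%. Thinning left out 13, 18, 17 and 37 shallower cells in the same order. The 18 clodronate+NMDA MG with a UMI of *OLIG2* or *SOX10* had 790 CPM of S phase genes and the other 326 had 778 CPM. With the single gate 13 of 20 genes rose, with barcodes over 2500 genes left out 11 of the 16 that could be compared, and after thinning 9 of 12. Cell division was not measured in these libraries, which hold RNA taken the day after NMDA or saline. By EdU label in sections, the study reports that damaged chick retinas without microglia fail to form proliferating MGPCs. RNA of S phase genes and EdU label are unlike measures, and they were not compared here.

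Genes of G2 and M phase were sparse, and 8 of 23 found had enough UMIs. Of these 6 rose (75%, against 9.10% of all genes) and 0 fell. Where clodronate+saline held few UMIs, the minimum of 20 UMIs favoured genes that rose. The 75% is therefore no measure of the list as a whole. With microglia 4 of the 8 rose, against 14.1% of all genes compared in that pair, with a median of 1.06 against 1.54 without. *CCNA2*, cyclin A2, had 5 and 42 UMIs (2.73, 1.51 to 4.54), *CDK1* 2 and 29 (3.34, 1.65 to 6.75), *BIRC5* 7 and 33 and *TOP2A* 8 and 34. Each of these passed the minimum only through its clodronate+NMDA UMIs. The intervals of *TPX2* and *NUF2* held 0. *CCNB1*, cyclin B1, had 9 and 17 UMIs. At least 2 G2 and M phase UMIs per thinned cell were in 2.42% of clodronate+NMDA MG, 0.52% of NMDA MG and 0.23% of clodronate+saline MG.

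**Figure D4:**
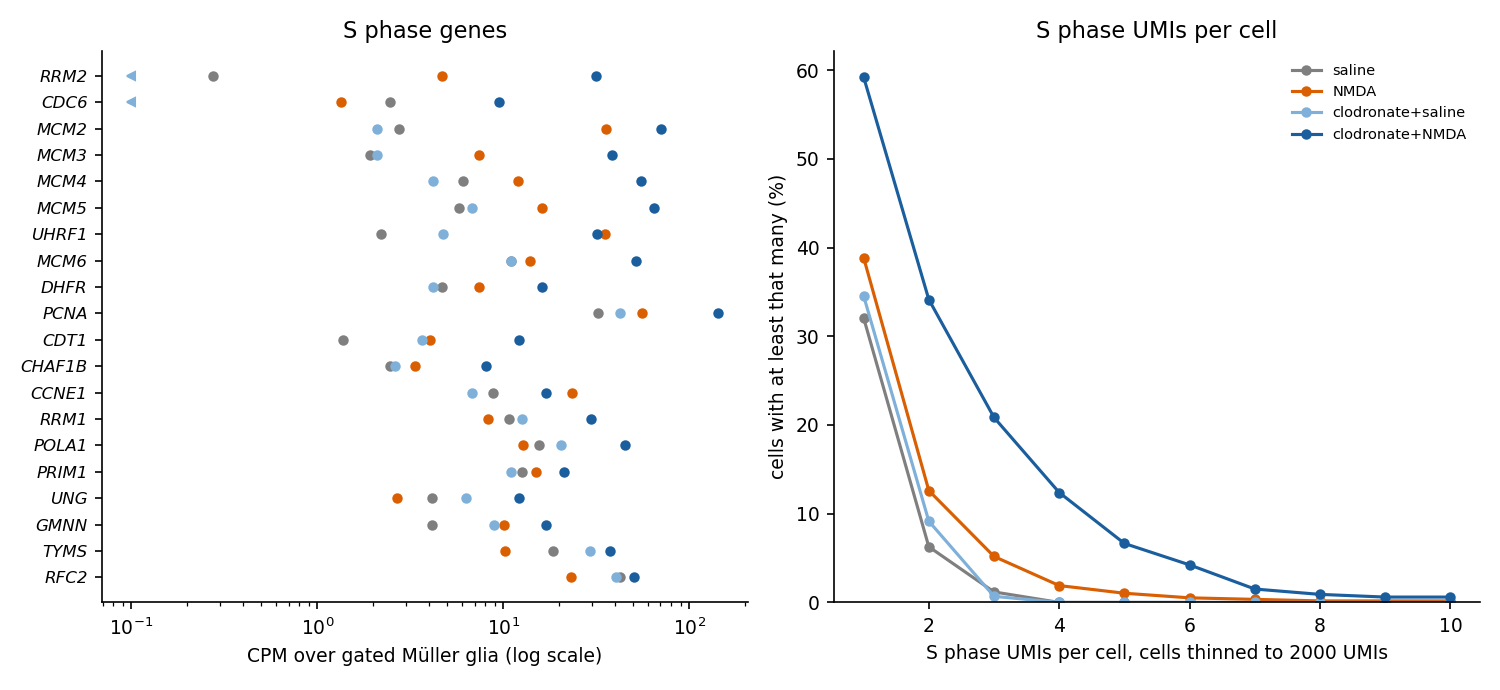
Left, CPM of each S phase gene with at least 20 UMIs over the gated MG of the 4 libraries, on a log scale, with left-pointing triangles for 0 UMIs. Right, share of MG with at least a given number of S phase UMIs after thinning each cell to 2000 UMIs, where at 2 UMIs clodronate+NMDA stood at 34.1% and NMDA at 12.6%. Colours are the same in both panels.

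Glycolysis fuels MG and passes lactate to neurons. Of 23 genes of glycolysis and hypoxia 1 rose (4.35%) and 10 fell (43.5%, against 10.6% of all genes), with a median of -0.82. *DDIT4*, a stress-induced brake on mTOR, went from 1904 to 166 CPM (-3.52, -3.68 to -3.36), while it was at 543 and 189 CPM in saline and NMDA. *SLC2A1*, the glucose transporter GLUT1, went from 2319 to 611 CPM and *EGLN3*, an oxygen sensor, from 129.8 to 30.5 CPM. *ENO1*, *LDHA* and *ALDOC* fell by 1.26, 1.14 and 1.09 on the log2 scale. *LDHB*, the lactate dehydrogenase subunit that favours lactate use, rose from 1435 to 4570 CPM. *GAPDH* was at 13019 and 12983 CPM.

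Of 12 genes of fatty acid binding and lipid handling 4 rose and 2 fell, 33.3% and 16.7%. *FABP5*, a fatty acid binding protein, went from 236 to 1967 CPM (3.06, 2.92 to 3.20) and *PLIN2*, a coat protein of lipid droplets, from 57.6 to 176 CPM. *CPT1A* rose, and *ACSBG1* and *APOD* fell. *FABP3* went from 15 to 81 UMIs (2.17), but 85.2% of those 81 were in 5 cells, and with the single gate its log2 ratio turned to -0.39. *FABP7* was at 2210 and 2861 CPM, and at 1065 and 3383 CPM in saline and NMDA. Of 16 cholesterol genes 4 rose (25%) and 0 fell. *SQLE*, *HMGCS1* and *CYP51A1* make cholesterol and had log2 ratios of 3.27, 1.40 and 1.59. They were 2.22, 2.59 and 1.92 in bipolar-gene barcodes, where the list had the higher median (1.16 against 0.40 in MG). *ABCA1*, which exports cholesterol, rose in MG from 5 to 55 UMIs and had a log2 ratio of -1.88 in bipolar-gene barcodes.

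Chaperone genes rose in part, with 8 of 23 heat shock and stress genes higher and 3 lower (34.8% and 13%). *HSPA5* and *HSP90B1*, chaperones of the endoplasmic reticulum, went from 196 to 771 CPM and from 171 to 554 CPM, and *TXN*, thioredoxin, from 763 to 2198 CPM. *HSPB9* and *HSPA2*, as the files name them, fell, the latter from 2194 to 777 CPM, and so did *GADD45A*. Of 21 matrix and integrin genes 5 rose and 4 fell, 23.8% and 19%. The basement membrane collagen genes *COL4A1* and *COL4A2* went from 2 to 87 and from 1 to 49 UMIs, and *LAMC1*, *COL18A1* and *ITGB8* rose. *SPARCL1* (512 to 84.9 CPM), *ITGB5* (132 to 18.9 CPM), *NCAN* and *FN1* fell. Of 8 genes of the IGF system *IGFBP1* and *IGFBP3* rose, from 2 to 38 and from 81 to 342 UMIs, and *IGFBP4* and *IGFBP5* fell, from 484 to 112 and from 1422 to 666 CPM. That is 25% in each direction. The call of *IGFBP5* was lost in 1 of 14 alternatives. Ribosomal protein genes had a median of 0.39, and 1 of 19 rose (5.26%, below the 9.10% of all genes), *RPS2*, from 581 to 2035 CPM.

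The same contrast was then set beside NMDA over saline MG, 597 and 882 cells taken with the same gates from the libraries that had microglia. Those MG held 4478254 and 3642108 UMIs, with medians of 7346 and 4128.5 per cell. The pairs share no library. They differ in the clodronate liposomes as well as in microglia, and by the labels no library had liposomes without clodronate. Effects of microglia loss, of the liposomes and of the separate libraries cannot be told apart here. With microglia 1608 of 11413 genes were at least 2-fold higher (14.1%) and 1899 at least 2-fold lower (16.6%). Over the 10259 genes tested in both pairs, 911 rose without and 1306 with microglia. Of these 563 rose in both, which is 61.8% of those without and 43.1% of those with microglia. There were 1069 and 1606 that fell, 696 of them in both, or 65.1% and 43.3%. Genes that rose with microglia had a median log2 ratio of 1.61 there and 0.89 without, and those that fell had -1.61 and -0.88. These genes were picked by their ratio with microglia, which favours larger values in that pair. The medians therefore do not compare the strength of the responses. Both pairs use gates that separate resting from activated MG.

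Genes with the largest differences between the pairs were of 2 kinds. On the lower side were genes whose log2 ratio was smaller or negative without microglia. *SDC4*, a syndecan, had a log2 ratio of 0.90 without and 5.94 with microglia, a difference of -5.04 (-5.75 to -4.33), and was at 38.7 CPM in clodronate+saline against 6.32 CPM in saline. *MT3* and *MT4*, metallothionein genes that bind zinc and may share reads, were at 525 and 917 CPM in clodronate+saline against 56.0 and 39.8 CPM in saline, at 1178 and 1196 CPM in clodronate+NMDA and at 1447 and 636 CPM in NMDA. Their log2 ratios were 1.17 and 0.38 without and 4.69 and 3.99 with microglia. *WNT4* and *INHBA*, described above, were lower in clodronate+NMDA than in NMDA. *FOSL2*, an AP-1 factor, was at 24.6 and 20.2 CPM without and at 5.49 and 71.0 CPM with microglia. *EXFABP*, *FN1*, *OASL* and *HES5* were the others, all higher in clodronate+saline than in saline, which the ranking by this difference favoured.

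On the higher side, genes that fell with microglia rose, were short of 2-fold or, for *SYT10*, fell less without them. *WIF1* had the largest difference, 7.84 (7.02 to 8.66). *AQP11*, an aquaporin, was at 179 and 6.92 CPM in saline and NMDA, but at 41.9 and 33.2 CPM in clodronate+saline and clodronate+NMDA. *GAREM2*, an adaptor of MAPK signaling, was at 31.3 and 0.45 CPM with and 19.9 and 21.1 CPM without microglia. *FADS2*, a fatty acid desaturase, fell from 80.4 to 17.4 CPM with and rose from 42.9 to 119 CPM without microglia. *PPP2R2C*, a regulatory subunit of protein phosphatase 2A, fell from 135 to 18.3 CPM with and rose from 70.1 to 148 CPM without them, where it was near the limit (1.07) and short of 2-fold in 4 of 14 alternatives, down to 0.77. *TBX5*, *PSCA* and *ALDH1A1* took the same courses at lower levels. In clodronate+saline these were at 3.14, 1.57 and 2.09 CPM, against 23.1, 59.9 and 24.7 CPM in saline. Every gene of this side was lower in clodronate+saline than in saline MG. The difference used to rank the genes contains both of these levels, so the ranking favoured this. *SST7* and *SYT10* fell steeply with microglia, by 4.75 and 5.39 on the log2 scale, and had log2 ratios of 0.32 and -1.35 without. However, 86.8% of the clodronate+NMDA UMIs of *SST7* and 63.3% of the 30 of *SYT10* were in 5 cells. The log2 ratio of *SYT10* without microglia was as low as -2.65 among the alternatives.

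**Figure D5:**
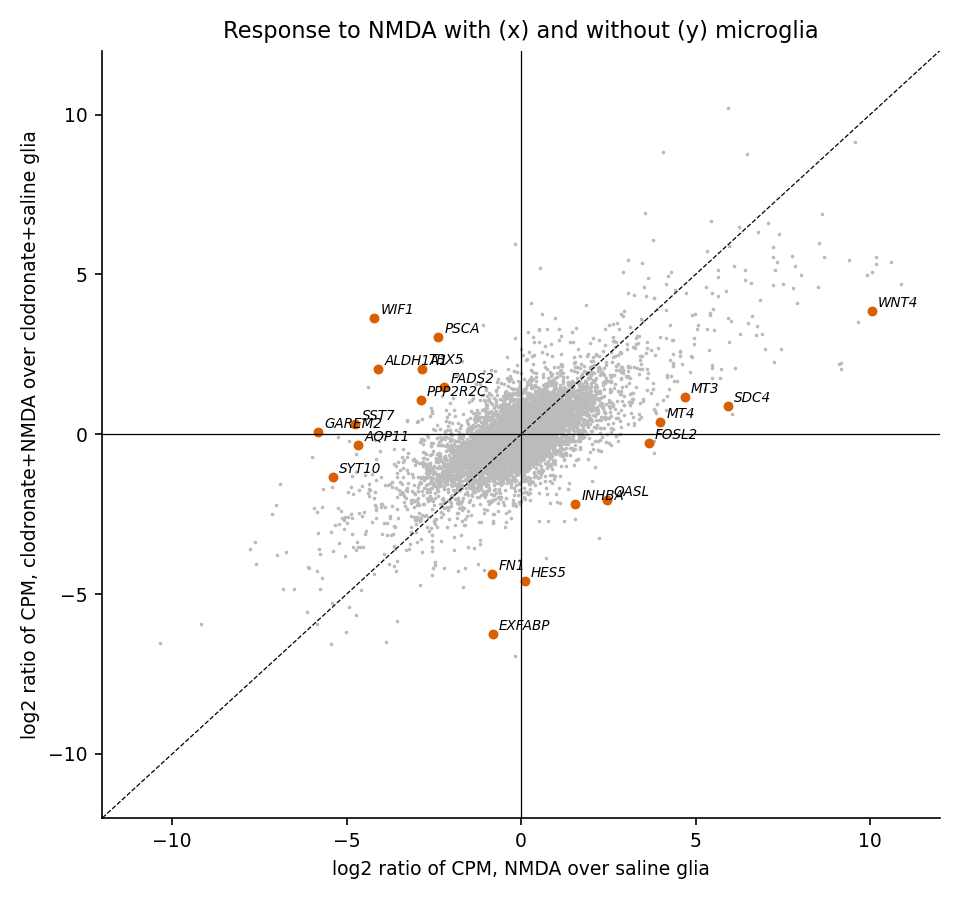
Log2 ratio of CPM for NMDA over saline MG (x) and for clodronate+NMDA over clodronate+saline MG (y), 1 point for each gene with at least 20 UMIs in each pair, with the dashed line where they are equal. Named points are the 20 genes with the largest difference, among them *WIF1* (-4.20 and 3.64) and *WNT4* (10.05 and 3.87).

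In the chicken assembly GRCg7b, RefSeq places *WNT4* on chromosome 21 from 6295870 to 6309892, *WNT6* on chromosome 7 from 22026370 to 22035132, *WIF1* on chromosome 1 from 34009355 to 34051131, *INHBA* on chromosome 2 from 50572407 to 50593177 and *ANXA1* on chromosome Z from 36635449 to 36653095.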

How the data were processed

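The files deposited by the authors hold counts, whole numbers of UMIs for each gene and cell barcode. Per the submitters' notes they were made with Cell Ranger 7.0.1 and the assembly GRCg7b, whereas the study's methods name an earlier assembly. No columns were left out (0).

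Counts of the same symbol were added, summed over the gated MG of each library and scaled to CPM. No doublet caller was run. Log2 ratios used a pseudocount of 0.5 UMI and exact conditional binomial 95% intervals, for genes with at least 20 UMIs over both libraries, and 2-fold marked a gene as higher or lower. With 1 library per condition no test was run. Differences between pairs have Wald intervals and shares exact Clopper-Pearson intervals. A 0 was bounded at 3 UMIs per library. The intervals were tested on simulated counts.

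Named genes were the 12 highest and the 12 lowest, up to 4 members for each of 24 lists, and the 10 on each side that differed most between pairs. They were ranked by the interval bound nearest 0. List members that the study's text names were given beside them. Results on some of these genes are not reported here. Other list members were named after their values were seen. The members and the lists were chosen with earlier results of these data known. Of 573 listed symbols 539 were found, 8 through RefSeq synonyms, and 1532 of the genes compared have no symbol.

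Alternatives were 4 other gates, a limit of 2500 genes per cell, leaving out the cells richest in UMIs of other cell types, TMM, median-of-ratios and reduced-total scaling, means over cells, thinning to 2000 UMIs, and minimums of 100 and 1 UMI. Leaving out cells with *OLIG2* or *SOX10* was added after the data were seen. Work was done in R 4.3.3 with edgeR 4.0.16 (TMM) and otherwise with pandas 2.3.3, scipy 1.17.1 and numpy 2.4.6 under Python 3.11.15.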

Additional observations from a re-analysis of the deposited data

Results flagged for a closer look

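Among 386 named genes and list members, 12 were at least 2-fold higher in one pair of libraries and at least 2-fold lower in the other. Over all 10259 genes tested in both pairs, 25 were so lower with and higher without microglia, and 16 the reverse. The 386 include genes picked for the largest differences between the pairs, which favours opposite courses. *WIF1*, *ALDH1A1*, *PSCA*, *TBX5*, *PPP2R2C*, *FADS2*, *OASL* and *INHBA* were picked in this way. The 12 of 386 therefore give no share for genes at large. With 1 library per condition these differences were not tested. The intervals cover counting error only.

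Of these 12 genes 7 were lower with microglia and higher without them. *WIF1* had a log2 ratio without microglia minus that with microglia of 7.84 (95% interval 7.02 to 8.66), *ALDH1A1* of 6.13 (4.27 to 7.99), *PSCA* of 5.42 (3.77 to 7.07) and *TBX5* of 4.90 (3.44 to 6.36). *PPP2R2C* differed by 3.95 (3.51 to 4.39) and *FADS2* by 3.67 (3.16 to 4.17). The rise of *PPP2R2C* without microglia, 1.07, was near the limit and short of 2-fold in 4 of 14 alternatives, down to 0.77. The Notch effector gene *HEY1* had the smallest difference of this side, 2.27, from 30.2 to 13.2 CPM with and from 15.2 to 32.3 CPM without microglia. Each of these genes was lower in clodronate+saline than in saline MG, so the pairs start from different levels. Picking genes by opposite courses favours such a difference.

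The other 5 of the 12 genes were higher with microglia and lower without them. For *IFI6* the difference was -4.75 (-6.64 to -2.85), for *OASL* -4.51 (-5.52 to -3.50), for *INHBA* -3.74 (-4.02 to -3.46) and for *IGFBP4* -3.13 (-3.35 to -2.92). *USP18*, an interferon-induced protease, differed by -2.29 (-3.19 to -1.39) and was just past the limit without microglia, from 39.8 to 19.8 CPM. The rise of *OASL* with microglia came from 9 UMIs in saline MG and 64 in NMDA MG, the latter in 11 of 597 cells, and after thinning 0.83% and 0.86% of the cells had a UMI. That of *IFI6* came from 2 UMIs and 23, the latter in 4 cells. The saline MG had 0.55 CPM of *IFI6* and 2.47 CPM of *OASL*, and the clodronate+saline MG had 275 and 361 CPM.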

How the results depend on the processing

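Under the alternative gates, cell choices, scalings, cell weights and depth, 712 to 1068 genes were at least 2-fold higher and 871 to 1332 lower, within 1.5 times of 942 and 1102. With at least 100 UMIs there were 410 higher and 546 lower of 5543 genes, and with at least 1 UMI 3192 and 3181 of 16976, since fewer or more genes were compared. No scaling moved the median of all genes by more than 0.07. Of 109 genes named by rank and past 2-fold, 0 to 3 lost their call under each alternative that could compare them. Among them were *BTG2*, *CCL4*, *FABP3*, *HMOX1*, *IGFBP5*, *NR4A3*, *PPP2R2C* and *WNT5A*. List members named otherwise, such as *MDK* and *FGFR1*, are not in this count. With either gate admitted in both libraries, *HMOX1* turned from 3.55 to -0.21 and the median of the oligodendrocyte and NIRG cell markers from 4.41 to -0.37. The latter turned to -0.31 without cells with *OLIG2* or *SOX10*, which are members of that list and were set to 0 by this choice. With the gate on *SOX9*, *SLC1A3* and *VIM*, *FABP3* turned from 2.17 to -0.39 and the median of the ganglion cell markers from 1.59 to -0.68. The causes were not tested. Genes such as *WNT4* with 1 UMI in a library are limited by depth. No paired analysis was possible because each condition has 1 library and the labels give no replicate numbers.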
